A study of Rattus norvegicus with 6 samples.

Results

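Slc35d3, Il22ra2, Il20ra and Ifngr1 are 4 protein-coding genes that lie close together on rat chromosome 1. All probes whose transcript accession RefSeq assigns to one of them were taken, which gave 5 probes and 8 spots per array. The 4 genes are among 15168 genes with a probe and a RefSeq symbol. Slc35d3 was chosen because its difference between the 2 lines was among the largest, and the other genes for their position beside it. All signal differences between the 2 lines for these 4 genes are therefore given as a description, without a test.

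Brain RNA came from 3 rats of the SPORTS line, a hyperactive mutant line, and from 3 wild type rats. All 6 rats were sedentary males of Wistar background, aged 15 weeks. The labels name no allele for the line and no brain region, and each rat gave 1 single-colour Agilent array. Nothing in the labels says more about the litters or cages the rats came from.

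Slc35d3 belongs to the SLC35 family of transporters that carry nucleotide sugars into the Golgi apparatus and the endoplasmic reticulum. In mice its loss disturbs the dense granules of platelets, and in mouse striatal neurons it is needed for dopamine D1 receptors to leave the endoplasmic reticulum. The other 3 genes encode class II cytokine receptor chains. Ifngr1 is the chain that binds interferon gamma and works with Ifngr2. Il20ra pairs with Il20rb to form a receptor for interleukins of the IL-20 group, and Il22ra2 encodes a secreted protein that binds interleukin-22 and keeps it from its receptor on the cell surface.

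In the RefSeq order the protein-coding genes of this stretch run Ifngr1, Il22ra2, Il20ra, LOC102547604 and Slc35d3. LOC102547604, a predicted protein-coding gene, overlaps Slc35d3 and had no probe matched to it. No probe positions are given in the files, so whether a Slc35d3 probe also reads the overlapping gene was not tested.

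The promoters of Slc35d3 and Ifngr1 are shown, as the genes of the group with an entry in the RefSeq promoter table used here; Il22ra2 and Il20ra had no entry. Each sequence holds the 250 bases before the RefSeq transcript start in build GRCr8, at chr1:16392781-16393030 on the minus strand for Slc35d3 and at chr1:16152660-16152909 on the plus strand for Ifngr1. Capitals mark the matches to the motifs searched.
Slc35d3: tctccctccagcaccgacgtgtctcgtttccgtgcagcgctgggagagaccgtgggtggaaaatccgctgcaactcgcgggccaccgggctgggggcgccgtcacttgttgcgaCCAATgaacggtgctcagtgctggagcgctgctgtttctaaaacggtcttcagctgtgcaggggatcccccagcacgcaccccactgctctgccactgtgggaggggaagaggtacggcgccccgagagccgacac
Ifngr1: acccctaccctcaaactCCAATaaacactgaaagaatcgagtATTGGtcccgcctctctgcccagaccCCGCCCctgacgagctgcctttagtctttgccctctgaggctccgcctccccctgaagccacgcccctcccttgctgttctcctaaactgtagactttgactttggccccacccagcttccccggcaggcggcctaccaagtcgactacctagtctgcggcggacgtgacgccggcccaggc

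Both strands were searched for the TATA box TATAAA, the CCAAT box CCAAT, the GC box GGGCGG, the cyclic AMP response element TGACGTCA and the gamma activated site TTCNNNGAA. No match overlapped another. The Slc35d3 window held 1 CCAAT box and no other match. The Ifngr1 window held 2 CCAAT boxes, 1 of them on the opposite strand, and 1 GC box on the opposite strand. Of 33469 promoter windows of the same length, 34.0% held a CCAAT box, 30.5% a GC box, 12.9% a TATA box, 7.7% a gamma activated site and 1.6% the cyclic AMP response element. The windows had 64.8% (Slc35d3) and 61.2% (Ifngr1) G and C, against a median of 51.2% over all windows. These matches describe the sequence and are not shown to be binding sites.

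Levels below are normalised log2 signals, where 0 stands for the array's 75th percentile. A difference is the SPORTS mean less the wild type mean. By the flag of the scanner software, each array had 20323 to 23261 of its 30367 probes well above background, and no spot was saturated. A probe was tested where SPORTS, wild type or both had it well above background in all 3 rats, which held for 4 of the 5 probes described here and for 20658 probes in all. All arrays were on 1 slide, wild type replicates 1 and 2 in the first row and 4 arrays in row 2, and a fit with this row as a covariate is called the row-blocked fit. SPORTS replicate 1 stood apart on cerebellar genes (chosen because earlier results showed it): the Purkinje cell gene Pcp2 was at -0.51 there, against -3.56 and -3.58 in SPORTS replicates 2 and 3 and -3.75 to -3.54 in wild type. The differences of the measured genes of the group are therefore also given without that array.

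Slc35d3 had the lowest difference of the 4 genes. Probe A_44_P870348, the brighter of the 2 probes of transcript NM_001107522, had processed signals of 75.1, 103 and 105 units in SPORTS replicates 1, 2 and 3, against 723, 633 and 643 units in wild type replicates 1, 2 and 3. On the normalised log2 scale these were -4.39, -3.93 and -3.87 in SPORTS and -1.13, -1.36 and -1.30 in wild type. Every SPORTS array was below every wild type array, and all 6 arrays were well above background. The means were -4.07 ± 0.29 in SPORTS and -1.26 ± 0.12 in wild type (SD, n = 3 each), a difference of -2.80 ± 0.15 (SE of the fit), or 6.97-fold lower in SPORTS. Of 11033 genes tested, 10 had a difference this low or lower, Slc35d3 included.

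Probe A_44_P543439 of the same transcript was dimmer and had the same direction. Its normalised log2 values were -6.58, -6.95 and -5.92 in SPORTS and -4.47, -4.43 and -4.63 in wild type, again without overlap of the groups. Only 1 of the 3 SPORTS arrays was well above background, against all 3 wild type arrays, so the size of its difference, -1.98 ± 0.26 (SE), is uncertain. Both probes have 1 spot per array, and none of these spot values was an outlier by the scanner software. The probes read the same RNA samples and are not independent replicates of the line.

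The size for Slc35d3 depended on how background was treated. With normexp background correction, whose offset shrinks differences of dim probes, the brighter probe differed by -2.17, which is 4.51-fold, and the dimmer one by -0.67, which is 1.59-fold. In the row-blocked fit the brighter probe differed by -2.76 and the dimmer one by -1.86. Without SPORTS replicate 1 the differences were -2.64 and -1.93.

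Il22ra2 had the highest difference of the 4 genes, in the direction opposite to Slc35d3. Its single probe A_44_P151482 (NM_001003404) had 2 spots per array. The normalised log2 values were -3.58, -3.70 and -3.62 in SPORTS, against -6.17, -5.92 and -5.87 in wild type. The 3 SPORTS arrays lay within a narrow range and all were above every wild type array. The processed signal averaged over the 2 spots was 132, 122 and 125 units in SPORTS replicates 1, 2 and 3, against 21.9, 27.0 and 30.0 units in wild type.

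The Il22ra2 means were -3.63 ± 0.06 in SPORTS and -5.98 ± 0.16 in wild type (SD, n = 3 each). The difference was 2.35 ± 0.09 (SE), or 5.10-fold higher in SPORTS, and 21 of 11033 genes tested had a difference this high or higher, Il22ra2 included. All 6 SPORTS spots and 5 of 6 wild type spots were well above background. In wild type replicate 3 the 2 spots differed by 1.29 on the log2 scale and 1 was not well above background, so that 2 of 3 wild type arrays counted as above it. In SPORTS the 2 spots of an array differed by 0.02 to 0.16.

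As the wild type signal of Il22ra2 was close to background, the fold is uncertain. The raw median brightness of its spots was 168 to 210.5 units in SPORTS and 67 to 102.5 units in wild type, over a local background of 36 to 48 units in SPORTS and 37 to 51 units in wild type. With normexp the difference was 1.10, which is 2.15-fold. It was 2.23 in the row-blocked fit, and without SPORTS replicate 1 it was 2.33.

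Ifngr1 had a strong signal in both lines and a small difference. Probe A_42_P658552 (NM_053783) was at 0.74, 0.66 and 0.74 in SPORTS, against 0.36, 0.44 and 0.46 in wild type on the normalised log2 scale. The groups did not overlap, and all 12 spots over the 6 arrays were well above background. The means were 0.71 ± 0.05 in SPORTS and 0.42 ± 0.05 in wild type (SD, n = 3 each), so the difference was 0.29 ± 0.05 (SE), or 1.22-fold. In the row-blocked fit it was 0.25 ± 0.07 (SE), and without SPORTS replicate 1 it was 0.28. Of the 2 spots of an array, the same one was the brighter on all 6 arrays, by 0.09 to 0.20 on the log2 scale.

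Il20ra was not measured above background in either line. Probe A_64_P064003 (NM_001107521) had normalised log2 values of -7.44, -7.85 and -6.50 in SPORTS and -8.84, -6.36 and -7.02 in wild type, with overlapping groups. Of its spots, 1 of 6 in SPORTS and 1 of 6 in wild type were well above background. Its mean difference of 0.14 changed sign with normexp, in the row-blocked fit and without SPORTS replicate 3 or wild type replicate 1, and it was left out of the fit over all probes. No fold is given for it.

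**Figure D1:**
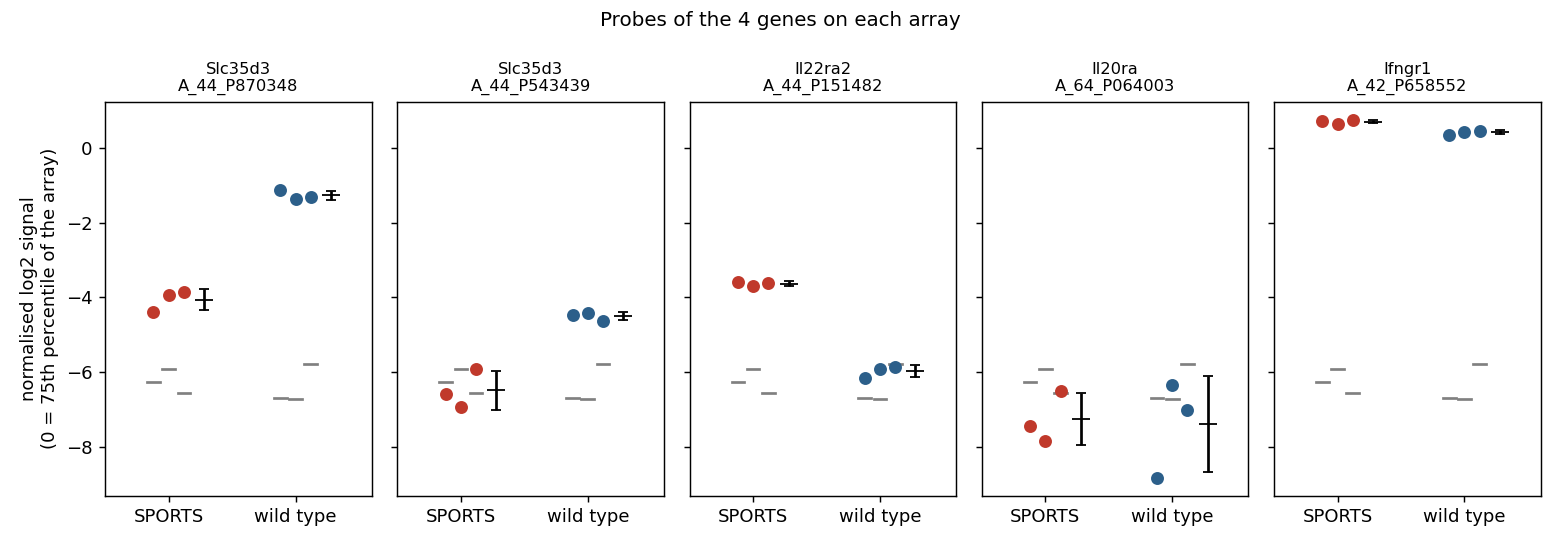
Normalised log2 signal (vertical axis, 0 is the 75th percentile of the array) of the 5 probes on each array, SPORTS in red and wild type in blue. Points are replicates 1 to 3 of a group in that order, black bars are the mean and SD, and grey ticks mark the lowest signal of any probe well above background on that array. SPORTS lies below wild type for both Slc35d3 probes, above it for Il22ra2 and, by 0.29, for Ifngr1, while the points of Il20ra overlap.

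In the fit over all probes, 4 of the 4 tested probes passed the threshold of 0.05 (limma's moderated test, Benjamini-Hochberg adjustment), against 21.1% of all tested probes (11.1% higher and 10.1% lower in SPORTS). The groups did not overlap for these 4 probes, which held for 41.9% of all tested probes (21.4% higher and 20.5% lower in SPORTS). In the row-blocked fit 2 of the 4 passed, the brighter Slc35d3 probe and Il22ra2, against 7.73% of all tested probes (3.59% higher and 4.14% lower). Il22ra2 entered the fit only through SPORTS and the dimmer Slc35d3 probe only through wild type, in each case the group where it was higher. As Slc35d3 was also chosen from this comparison, nothing is read from these counts.

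Genes around the group were called at about the share seen over all genes tested, and few of them could be tested. Of 31 protein-coding genes within 15 places of one of the 4 genes, 15 had a probe and 11 were tested. Of these 11, 2 rose and 1 fell (limma adjusted p under 0.05), against 24.3% of all genes tested in either direction. The groups did not overlap for 5 of the 11, against 47.1% of all genes. Perp, which encodes a membrane protein of cell junctions and a target of p53, lies 3 places before Ifngr1. It was at -0.70, -0.84 and -0.90 in SPORTS, against -1.67, -1.75 and -1.80 in wild type, without overlap, and rose by 0.93 ± 0.07 (SE; limma adjusted p = 0.000778).

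Hebp2, a haem-binding protein gene 7 places before Ifngr1, rose by 0.77 ± 0.14 (SE; limma adjusted p = 0.0138). Pde7b, which encodes a phosphodiesterase that breaks down cyclic AMP, lies 6 places after Slc35d3 and fell by 0.45 ± 0.08 (SE; limma adjusted p = 0.0131). Neither call held in the row-blocked fit (limma adjusted p = 0.123 and 0.0934), while that of Perp held (limma adjusted p = 0.0105). That fit called 8.34% of all genes.

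The direct neighbour of Slc35d3, the peroxisomal import receptor gene Pex7, did not pass. Its values were -1.97, -1.92 and -1.83 in SPORTS and -2.02, -1.96 and -2.11 in wild type, which overlap, with a difference of 0.12 ± 0.06 (SE; limma adjusted p = 0.196). The other 7 tested neighbours had differences between -0.13 and 0.09, and none passed. Slc35d3 and Il22ra2 differed in opposite directions, while the nearest tested genes on either side, Pex7 and Perp, differed by 0.12 and 0.93.

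**Figure D2:**
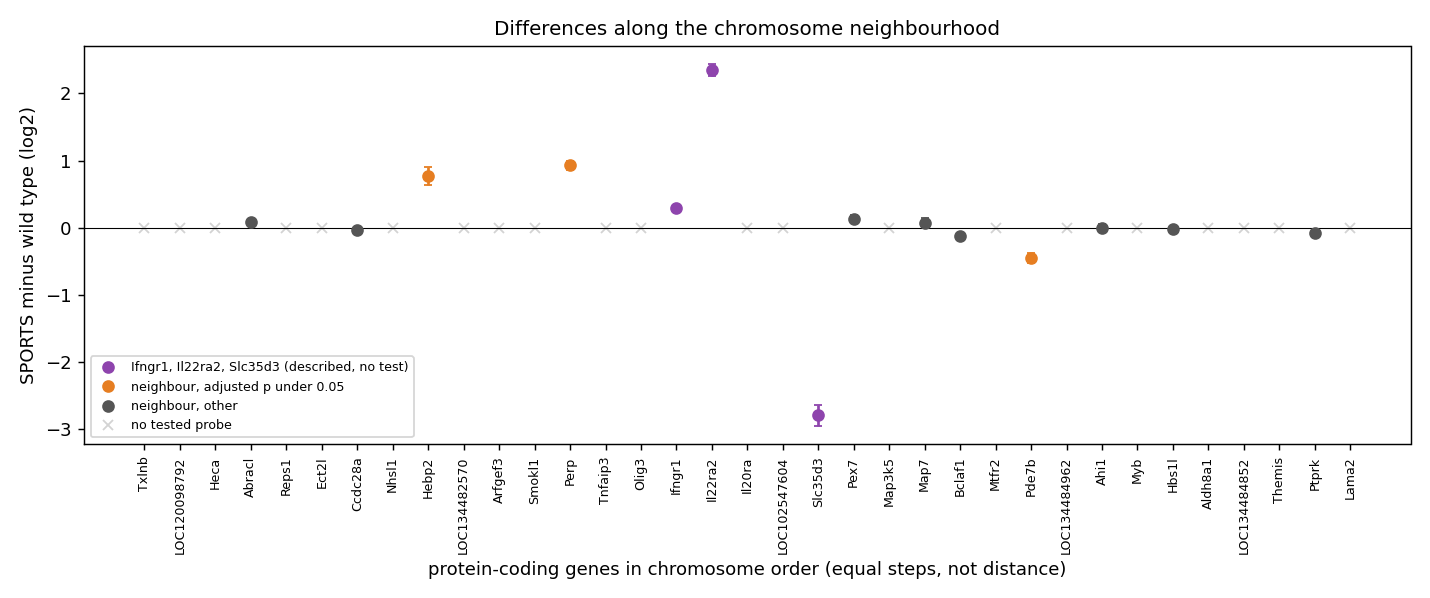
Difference of SPORTS minus wild type (log2, vertical axis) for protein-coding genes in chromosome order, in equal steps. Points with bars are the fitted difference and its SE, and crosses mark genes without a tested probe. Il22ra2 lies at 2.35 and Slc35d3, which was chosen for its large difference, at -2.80. Of the 11 tested neighbours, Hebp2, Perp and Pde7b passed the test.

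Rgs9, Adora2a, Mcrip1 and Drd1 were among the 5 genes whose profile over the 6 arrays was nearest to that of Slc35d3. Likeness was the root mean square distance between profiles of normalised log2 values, each centred on its own mean, and it was 0.09 for Rgs9, 0.20 for Adora2a, 0.27 for Mcrip1 and 0.29 for Drd1. Rgs9 encodes a striatum-enriched protein that shortens G protein signals, and Adora2a an adenosine receptor of striatal neurons. Drd1 encodes the dopamine D1 receptor, and Mcrip1 a protein that binds transcriptional corepressors. As the measure is dominated by the difference between the 2 lines, these are genes that differed by a similar amount and no more is shown.

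Rgs9 was at -1.51, -1.17 and -1.28 in SPORTS, against 1.57, 1.37 and 1.43 in wild type. SPORTS replicate 1 was the lowest array and wild type replicate 1 the highest for both Rgs9 and Slc35d3, while SPORTS replicates 2 and 3 were in opposite order. Rgs9 was chosen for its likeness on these arrays. Adora2a was at -4.09, -3.13 and -3.29 in SPORTS and at -0.24, -0.50 and -0.54 in wild type. Mcrip1 was at 0.47, 0.36 and 0.39 in SPORTS and at 3.10, 3.08 and 2.69 in wild type, and fell by 2.55 ± 0.12 (SE; limma adjusted p = 0.000209). Unlike for Slc35d3, SPORTS replicate 1 was the highest SPORTS array for Mcrip1.

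Drd1 was at -6.26, -6.07 and -5.70 in SPORTS, against -3.67, -3.85 and -3.22 in wild type. It was well above background on 1 of 3 SPORTS arrays and on all wild type arrays. Drd1 fell by 2.43 ± 0.21 (SE; limma adjusted p = 0.00146), and by 1.15 with normexp.

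**Figure D3:**
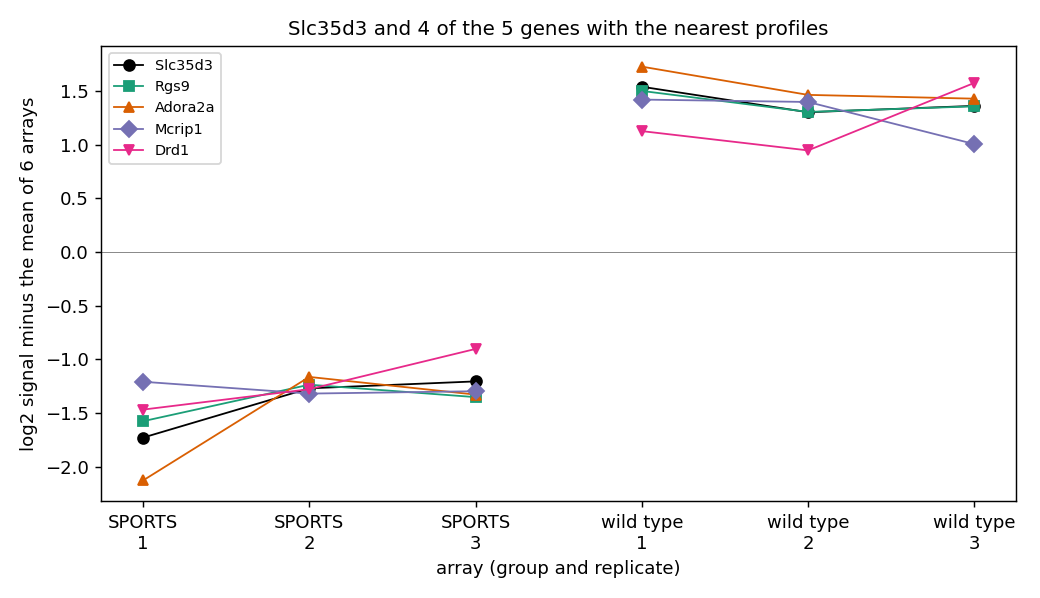
Normalised log2 signal minus the mean of the 6 arrays (vertical axis) for Slc35d3 and 4 of the 5 genes with the nearest profiles, on each array of SPORTS and wild type. Lines join arrays of a group for reading only. SPORTS arrays are low and wild type arrays high for each of the 5 genes drawn, and Rgs9 runs closest to Slc35d3.

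Slc35d3 was lower together with most markers of striatal projection neurons. In brain tissue, fewer cells of a type and less RNA per cell cannot be told apart. As the labels name no brain region, the share of striatum in each sample is not known either, and its part was not tested. Of 24 tested markers in 3 lists, 19 fell and 0 rose (limma adjusted p under 0.05), while 11.4% of all genes fell. For 1 of the 24, Adora2a, the difference was as low as that of the brighter Slc35d3 probe or lower. Rgs9 and Isl1, both at -2.77, came close to it, and the dimmer Slc35d3 probe was at -1.98. Of the 10 tested markers shared by striatal projection neurons all fell, with a median of -0.99, among them Ppp1r1b by 1.83 ± 0.07 and Gng7 by 1.26 ± 0.09 (SE). The median over all genes tested was 0.01.

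Of 8 markers of the D1 type, 5 fell, with a median of -0.87. Besides Drd1 these were Isl1, Tac1, Pdyn and Chrm4 (chosen after its values were seen). Tac1 and Pdyn, which encode the precursors of substance P and dynorphin, fell by 1.23 ± 0.08 and 1.14 ± 0.09 (SE). Isl1, a homeobox gene that only 1 SPORTS array measured well above background, fell by 2.77 ± 0.58 (SE; limma adjusted p = 0.0232), and by 1.003 with normexp, but did not pass in the row-blocked fit (limma adjusted p = 0.137). Its call was also lost when dim probes were kept and when SPORTS replicate 2 or any 1 wild type array was left out.

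Of 6 markers of the D2 type, 4 fell, with a median of -1.31: Adora2a, Penk, Drd2 and Sp9. Adora2a fell by 3.08 ± 0.26 and Drd2 by 1.86 ± 0.09 (SE). The summed signal of the markers shared by both types, in multiples of the 75th percentile of the array, was 21.6 to 23.3 in SPORTS and 40.5 to 45.7 in wild type. For the D1 list it was 19.9 to 20.9 in SPORTS and 25.8 to 27.8 in wild type, and for the D2 list 2.92 to 3.45 in SPORTS and 9.62 to 11.5 in wild type. The part of these markers in the difference of Slc35d3 was not tested. The row-blocked fit called 10 shared, 4 D1 and 4 D2 markers lower, against 4.31% of all genes, and 1 D2 marker higher.

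Other tested transporters of the family had differences from -1.22 to 0.49. Of 21 tested SLC35 genes other than Slc35d3, 2 rose and 4 fell (12.9% and 11.4% of all genes), and the median was -0.02. The 4 became 1 without SPORTS replicate 2 or 3 or wild type replicate 2 or 3, and 2 without SPORTS replicate 1. Slc35g3 fell most, by 1.22 ± 0.14 (SE; limma adjusted p = 0.00332), with 1 of 3 SPORTS arrays above background, and its fall was 0.50 with normexp. Slc35f2 rose by 0.49 ± 0.05 (SE; limma adjusted p = 0.00213). Slc35a3, which carries UDP-N-acetylglucosamine into the Golgi apparatus, rose by 0.35 ± 0.05 (SE), and Slc35f1 fell by 0.35 ± 0.07 (SE).

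Slc35d1, the nearest relative of Slc35d3 with a tested probe, carries UDP-sugars into the endoplasmic reticulum. Its brighter probe was at -3.97, -4.01 and -4.01 in SPORTS, against -3.86, -3.88 and -3.82 in wild type, without overlap. It fell by 0.14 ± 0.04 (SE; limma adjusted p = 0.0383), while its other probe differed by 0.02 ± 0.16 (SE; limma adjusted p = 0.951). The call was lost when any 1 array was left out, under normexp, when dim probes were kept, under a trended and robust variance and in the row-blocked fit (adjusted p from 0.0235 to 0.242 over the alternatives). Slc35c1, named after its values were seen, also fell by 0.14 ± 0.04 (SE). Slc35f2 and Slc35g3 passed in the row-blocked fit, while Slc35c1, Slc35a3 and Slc35f1 did not (limma adjusted p = 0.0641 for Slc35a3 and 0.0825 for Slc35f1). Slc35f1 also lost its call when dim probes were kept and when one of SPORTS replicates 2 and 3 or wild type replicates 2 and 3 was left out.

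Genes of dense granules and related organelles, the compartments that Slc35d3 loss disturbs in mouse platelets, were called in both directions, by small amounts. Of 19 tested, 3 rose and 3 fell, against 12.9% and 11.4% of all genes, and the median was 0.07. Hps3 rose by 0.37 ± 0.04 and Hps4 fell by 0.43 ± 0.04 (SE), and both encode subunits of complexes needed for these organelles. Bloc1s2 fell by 0.41 ± 0.04 (SE). The small GTPase gene Rab27a rose by 0.38 ± 0.06 (SE), but did not pass in the row-blocked fit (limma adjusted p = 0.0908). Named after their values were seen, Lyst rose by 0.18 ± 0.03 and Vps33a fell by 0.29 ± 0.06 (SE), and neither passed in the row-blocked fit.

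The few other receptor genes of the class that could be tested showed no call, and none of their ligand genes could be tested. Of 9 other class II cytokine receptor genes 8 had a probe and 4 were tested. Of these 4, 0 passed (limma; 0 also at an unadjusted p under 0.05), against 24.3% of all genes tested, and so small a number shows little. Ifngr2, the signalling partner of Ifngr1, was at 0.15, 0.18 and 0.19 in SPORTS and at 0.13, 0.18 and 0.33 in wild type, which overlap. Its difference was -0.04 ± 0.06 (SE; limma adjusted p = 0.687). Il10rb, a chain shared by several receptors of the class, differed by 0.09 ± 0.04 (SE; limma adjusted p = 0.171).

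Il20rb, the partner of Il20ra, and Il22ra1, the signalling receptor for interleukin-22, were not well above background on any of the 6 arrays. The same held for Il22 itself and for Ifng, the gene of interferon gamma. Of 13 ligand genes 7 had a probe and 0 were tested. Il20 was well above background on 1 SPORTS and 1 wild type array, and Il24 on 0 SPORTS arrays and 1 wild type array. Il22, the ligand of the Il22ra2 protein, was thus not measured above background in either line.

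Some genes induced by interferon gamma were higher. Of 22 tested, 8 rose and 0 fell (limma adjusted p under 0.05), with a median of 0.31, while 12.9% of all genes rose. The count was 5 without SPORTS replicate 3 and 5 when dim probes were kept. The summed signal of the list overlapped between the groups, at 76.8 to 81.0 in SPORTS and 66.8 to 79.6 in wild type. Irgm, an interferon-induced GTPase gene, was at -3.37, -3.41 and -3.33 in SPORTS, against -4.80, -4.62 and -4.13 in wild type, without overlap. It rose by 1.15 ± 0.17 (SE; limma adjusted p = 0.00764), and by 0.76 in the row-blocked fit. Psmb8, an immunoproteasome subunit gene, rose by 0.60 ± 0.09 and RT1-Bb, an MHC class II gene, by 0.52 ± 0.10 (SE).

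Irf1, a transcription factor gene that interferon gamma induces, differed by 0.15 ± 0.07 and did not pass (SE, limma adjusted p = 0.203). Its dimmer probe differed by -0.02 ± 0.05 (SE). In the row-blocked fit 2 genes of the list were called higher, against 4.03% of all genes, and the median was 0.23. The calls of Psmb8 and RT1-Bb ended there (limma adjusted p = 0.0908 and 0.0797). RT1-Bb also lost its call when dim probes were kept and when SPORTS replicate 3 or one of wild type replicates 2 and 3 was left out.

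Of 18 tested JAK-STAT signalling genes, 3 rose, among them Irf9 and Stat5a, and 1, Stat2, fell (limma adjusted p under 0.05). Over all genes tested, 12.9% rose and 11.4% fell. The kinase genes that bind Ifngr1 and Ifngr2 did not pass, with differences of 0.10 ± 0.04 for Jak1 and -0.10 ± 0.04 for Jak2 (SE; limma adjusted p = 0.109 and 0.168). Irf9 rose by 0.45 ± 0.10 and Stat5a by 0.32 ± 0.05, and Stat2 fell by 0.20 ± 0.05 (SE). The row-blocked fit called 0 genes of this list (limma; 3 at an unadjusted p under 0.05). Irf9 and Stat2 also lost their calls when dim probes were kept and when any of 4 single arrays was left out, which were SPORTS replicates 1 and 3 and wild type replicates 1 and 2 for Irf9, and SPORTS and wild type replicates 2 and 3 for Stat2.

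**Figure D4:**
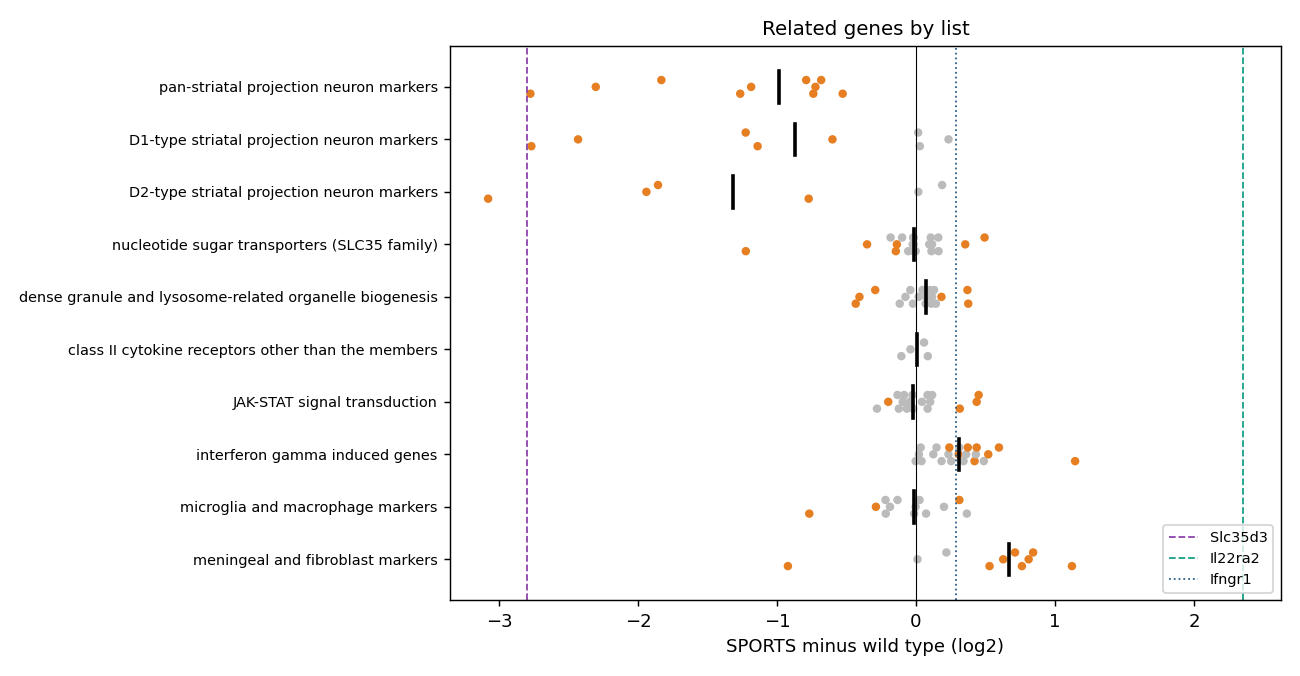
Difference of SPORTS minus wild type (log2, horizontal axis) for genes of 10 lists. Points are genes, orange where the limma adjusted p is under 0.05, black bars are list medians, and dashed or dotted lines mark Slc35d3, Il22ra2 and Ifngr1. Striatal markers lie toward Slc35d3, and interferon gamma induced genes have a median of 0.31. No gene of the 10 lists drawn rises as much as Il22ra2, while Foxp3, of a list not drawn, rose by 3.55.

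Markers of cells that could carry the cytokine receptor genes differed from list to list. The counts stand beside 12.9% of all genes tested that rose and 11.4% that fell (limma adjusted p under 0.05). Of 13 tested microglia and macrophage markers, 1 rose and 2 fell, with summed signals of 18.5 to 19.9 in SPORTS and 19.3 to 20.8 in wild type. Without wild type replicate 3, 4 of them fell, and 1 without wild type replicate 1 or any 1 SPORTS array. Tmem119, a microglial membrane protein gene, fell by 0.77 ± 0.06 (SE; limma adjusted p = 0.00127), while Ptprc, the pan-leukocyte gene CD45, rose by 0.31 ± 0.06 and Trem2 fell by 0.29 ± 0.06 (SE). The calls of Ptprc and Trem2 were lost under several alternatives (highest adjusted p = 0.0822 and 0.134). Of 10 meningeal and fibroblast markers, 7 rose and 1 fell, with summed signals of 18.0 to 20.7 in SPORTS and 11.9 to 14.2 in wild type. Dcn, a proteoglycan gene, rose by 1.12 ± 0.05, and the collagen genes Col1a2 and Col3a1 rose by 0.84 ± 0.10 and 0.81 ± 0.10, while Ogn fell by 0.92 ± 0.11 (SE). Col3a1 did not pass in the row-blocked fit (limma adjusted p = 0.0526).

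Of 11 T and NK cell markers 3 were tested and 1, Foxp3, rose, by 3.55 ± 0.16 (SE; limma adjusted p = 0.000194). For this list and those that follow, the shares over all genes tested were 12.9% higher and 11.4% lower. Of the T cell receptor complex genes, Cd3e was well above background on 1 SPORTS array and on 0 wild type arrays, and Cd3g on 2 SPORTS and 2 wild type arrays. Cd4 was so on 2 SPORTS and 2 wild type arrays, Cd8a on no array, and Lck and Nkg7 on all 6. All 6 of these genes were named after their values were seen, and their values overlapped between the groups. Of 9 astrocyte markers 4 rose, led by Aqp4 at 0.57 ± 0.08 (SE), with summed signals of 200.2 to 208 in SPORTS and 176 to 195 in wild type. Of 10 oligodendrocyte markers 3 rose, led by Cldn11 at 0.39 ± 0.05 (SE). Of 9 endothelial and pericyte markers 1, Pecam1, rose and 1, Rgs5, fell. Neither call held in the row-blocked fit, which called a different marker of this list lower. Without wild type replicate 1, 4 markers of this list rose. Of 3 tested platelet markers 0 passed (limma, 1 at an unadjusted p under 0.05). Of 8 pan-neuronal markers 1 rose and 2 fell, with a median of -0.07. The summed signals of the pan-neuronal markers were 57.7 to 57.8 in SPORTS and 59.7 to 61.7 in wild type. The call of the marker that rose, Nefl, was lost without any 1 array, and the count of lower markers was 0 to 2 without single arrays, with 0 without SPORTS replicate 2 and 1 without SPORTS replicate 1 or wild type replicate 1 or 3. The row-blocked fit called 6 of the meningeal and fibroblast markers higher and 1 lower, Foxp3 and Cldn11 higher, and 0 astrocyte and 0 pan-neuronal markers (limma; 3 and 2 at an unadjusted p under 0.05). The part of these markers in the differences of Il22ra2 and Ifngr1 was not tested.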

How the data were processed

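Brain RNA of 6 rats (3 SPORTS, 3 wild type) was hybridised to 1 array each. Per the file headers and the submitters' processing notes, the intensity values come from Agilent's Feature Extraction (version 10.10.1.1), with background already subtracted on each array. The deposited table holds the same intensity values times 1 factor per array (1.38 to 1.47), chosen in a way not given in the sources used here.

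Spots flagged as outliers (3075 values) were dropped, spots of a probe were averaged as log2 values, and the 75th percentile of each array's spots was subtracted. Of 58717 spots that were not controls, 30367 distinct probes resulted, and 18005 of these had a RefSeq symbol through their accession. The fit used limma 3.58.1 in R 4.3.3 over 20658 probes, with adjustment over all of them, after a test on simulated data. A gene was its brightest tested probe, and 11033 genes were tested. The number of arrays limits the precision. The p-values weigh the difference between the lines against the spread between rats of a line, which limma moderates over all tested probes.

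The members and the 17 gene lists (236 entries, 173 tested) were chosen with earlier results of these data known. Genes were named by rule: all members, the 5 nearest profiles to Slc35d3, called neighbours within 5 places and otherwise the 4 largest, up to 4 called genes per list, and set partners. Slc35d2, a set partner, had no probe matched, and 2 genes that the rule names are not reported here. Normexp, planned on the mean brightness, used the median brightness with the local background. Alternatives are given in the closing section.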

Additional observations from a re-analysis of the deposited data

How the results depend on the processing

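Alternatives were normexp, quantile and median normalisation, the deposited table, other filters on dim probes, outlier spots kept, a trended and robust variance, the slide row as a block and leaving out each array. The direction of Slc35d3, Il22ra2 and Ifngr1 was the same in every alternative run. Slc35d3 differed by -2.17 with normexp and by -1.98 on its other probe (-2.90 to -2.64 without single arrays), and Il22ra2 by 1.10 with normexp (2.26 to 2.41 without single arrays). Ifngr1 ran from 0.26 to 0.32 without single arrays. Il20ra, below background, differed by -0.0042 with normexp and by -0.24 with the slide row as a block, and ran from -0.58 to 0.66 without single arrays, with -0.24 without SPORTS replicate 3 and -0.58 without wild type replicate 1. Tested on all 6 arrays above background, only Slc35d3 on its brighter probe and Ifngr1 among the 4 genes remained.

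Called probes numbered 4364, but 2342 without the filter on dim probes, 1597 with the slide row as a block and 2551 to 3194 without single arrays. Called genes of the lists numbered 66, but 38 with the block and 51 to 60 without single arrays. Called neighbours numbered 3, but 1 with the block, and 3 without any single array. Ifngr2 ran from -0.0816 to 0.0188 without single arrays and changed sign without wild type replicate 3. The cause of these changes was not tested. The block leaves 1 wild type array to set against SPORTS within slide row 2. No paired analysis was possible because the labels give the 2 groups no shared replicate numbers that pair rats.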
